A study of Mus musculus with 30 samples.

Results

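A retained intron is a stretch between 2 exons that stays in part of a gene's RNA instead of being spliced out. The 259 regions described here are the retained introns longer than 200 nucleotides (nt) that the authors listed in at least 1 of 4 tables of alternative splicing in mouse neurons. They were chosen by event type and by length alone, the length being the gap between the exon blocks of the spliced isoform. The tables hold 474 distinct retained introns in all, of which the other 215 measure at most 198 nt. The 259 longer introns lie in 241 genes, 18 of which have 2 such introns, and they span 201 to 3300 nt with a median of 596 nt.

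The study removed NOVA2 from classes of neuron in C57BL/6J mice. Conditional knockouts (Nova2-cKO, cKO from here on) and wild-type controls carried the same Cre driver within a class, so each control shares the driver of its knockout. The groups behind the tables were Emx1-Cre Nova2-cKO and Emx1-Cre control cortex at embryonic day 18.5, Gad2-Cre Nova2-cKO and Gad2-Cre control cortex at embryonic day 18.5, and Pcp2-Cre Nova2-cKO and Pcp2-Cre control Purkinje tissue at postnatal day 28, each with 3 samples. The cortical cells were sorted by flow cytometry and the Purkinje tissue was dissected, and ribosomal RNA was removed from total RNA. Emx1-Cre is active in progenitors of the dorsal forebrain, which give rise to excitatory neurons and also to glia. Gad2-Cre is active in neurons that make GABA, and Pcp2-Cre in Purkinje cells of the cerebellum, so dissected tissue also holds cells with an intact gene. The other 12 of the 30 samples were not analysed here, and levels of the cell types' marker genes were not analysed here either.

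NOVA2 is a neuronal RNA-binding protein that recognises clusters of short pyrimidine-CA-pyrimidine elements, and where it binds relative to an exon or intron bears on whether splicing there is raised or lowered. A retained intron usually shifts or ends the reading frame, and RNA that keeps one is commonly held in the nucleus or degraded, though some retained introns are spliced later. Many genes that encode splicing factors carry such introns as part of their own regulation. In total RNA the level of retention also counts transcripts whose splicing was not complete at the time of extraction, and these cannot be told apart from stably retained forms.

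The sequences below show introns that moved the same way in the tables of both cortical knockouts, so that their 5' ends can be compared. The bases were read from transcripts of GENCODE mouse release M21 (build mm10) that keep the intron within an exon. They are written 5' to 3' on the transcript strand, and begin with the first base of the intron. Capitals mark 4 tetramers, namely TCAT, the variant TCAC, the variant CCAT and the variant CCAC, searched on the transcript strand with overlaps counted. The first 7 sequences are from introns with more retention in both knockouts, and the last 4 from introns with less. They are examples and not the full sets, and Celf2, which also had less in both, is not printed.
Alkbh6, whole intron, chr7:30312389-30312590, plus strand: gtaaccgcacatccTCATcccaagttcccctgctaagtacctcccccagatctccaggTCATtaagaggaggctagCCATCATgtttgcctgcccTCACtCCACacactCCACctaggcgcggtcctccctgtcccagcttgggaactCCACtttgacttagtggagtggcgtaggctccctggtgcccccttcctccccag
Ppox, first 100 nt, chr1:171279769-171279868, minus strand: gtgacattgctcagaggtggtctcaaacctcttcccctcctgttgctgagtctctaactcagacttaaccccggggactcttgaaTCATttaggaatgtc
Eif4a1, first 100 nt, chr11:69667922-69668021, minus strand: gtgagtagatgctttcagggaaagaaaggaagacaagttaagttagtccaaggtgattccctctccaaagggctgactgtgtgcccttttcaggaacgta
St7, first 100 nt, chr6:17850426-17850525, plus strand: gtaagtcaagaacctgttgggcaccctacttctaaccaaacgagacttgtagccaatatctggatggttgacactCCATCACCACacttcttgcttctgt
Brd9, first 100 nt, chr13:73942055-73942154, plus strand: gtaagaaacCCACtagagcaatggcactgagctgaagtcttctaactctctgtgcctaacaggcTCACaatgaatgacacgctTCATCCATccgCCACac
Cpsf4, first 100 nt, chr5:145177303-145177402, plus strand: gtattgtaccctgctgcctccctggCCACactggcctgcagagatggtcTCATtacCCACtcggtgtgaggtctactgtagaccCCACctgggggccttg
Agrn, first 100 nt, chr4:156168446-156168545, minus strand: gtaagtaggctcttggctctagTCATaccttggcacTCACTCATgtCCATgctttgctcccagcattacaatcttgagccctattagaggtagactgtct
Cntn2, whole intron, chr1:132528708-132528909, minus strand: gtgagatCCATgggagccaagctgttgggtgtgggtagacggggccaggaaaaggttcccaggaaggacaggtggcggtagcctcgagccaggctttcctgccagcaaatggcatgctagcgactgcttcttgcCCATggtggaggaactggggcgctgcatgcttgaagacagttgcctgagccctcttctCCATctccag
Sez6, first 100 nt, chr11:77973978-77974077, plus strand: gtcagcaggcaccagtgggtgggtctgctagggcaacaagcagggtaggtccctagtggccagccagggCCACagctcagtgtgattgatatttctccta
Smpd4, first 100 nt, chr16:17639846-17639945, plus strand: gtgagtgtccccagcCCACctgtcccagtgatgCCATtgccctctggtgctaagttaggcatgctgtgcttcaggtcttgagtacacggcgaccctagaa
Cep250, first 100 nt, chr2:155988433-155988532, plus strand: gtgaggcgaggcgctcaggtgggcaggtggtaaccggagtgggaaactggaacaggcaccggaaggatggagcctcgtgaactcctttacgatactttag
The Alkbh6 intron held 8 of these tetramers in its 202 nt and the Cntn2 intron of equal length held 3. In the first 100 nt, Brd9 held 5, Cpsf4 and Agrn 4 each, St7 3, Ppox 1 and Eif4a1 0, against 2 in Smpd4, 1 in Sez6 and 0 in Cep250. A match is a run of letters and not a binding site.

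Every level below is the authors' pooled retention level of a group, from 0 (always spliced) to 1 (always kept), in the authors' deposited tables. There is 1 level per group and none per sample, so levels have no replicate error here. The tables list only events with the authors' false discovery rate (FDR) at or below 0.05, a difference of at least 0.1 and a coverage of at least 20, so an intron missing from a table may have missed a threshold or may not have differed. The labels do not say whether samples of a group were separate animals.

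In Emx1-Cre cortical cells, loss of NOVA2 went mostly with more retention: of 145 longer introns listed (141 genes), 123 were higher in the cKO and 22 lower. This is 84.8% higher (95% Clopper-Pearson interval 77.9% to 90.2%, counting error only), against 82.3% among all retained introns of this table and 46.9% among its cassette exons, so the share is near that of retained introns in general. The median level was 0.360 in the cKO and 0.222 in the control. Differences of 0.2 or more were seen at 54 introns. From a minority level in the control, 31 introns passed to 0.5 or more in the cKO, against 11 that passed the other way. Among all 265 retained introns of this table, 91 had a difference of 0.2 or more, 49 passed up and 16 passed down. Whether these shares differ was not tested. Median coverage was 101.

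The largest rise in the Emx1-Cre cKO was in Adam11, which encodes a neuronal ADAM-family surface protein. Its 482 nt final intron was retained at 0.951 in the cKO and 0.324 in the control (authors' FDR 1.1e-11), at a coverage of only 28. Agrn encodes agrin, an organiser of the neuromuscular synapse whose transcript is a known NOVA target. Its 736 nt intron, number 34 of 37 in the annotated transcript, stood at 0.657 in the cKO and 0.183 in the control (authors' FDR 1.13e-16, coverage 145). Brd9, a bromodomain subunit of a SWI/SNF chromatin remodelling complex, stood at 0.843 in the cKO and 0.448 in the control for a 576 nt intron. By these levels the retained form passed from the minor to the major form in these 3 genes. Another listed event of this table lay across the Agrn and Brd9 introns, and its part in the levels was not tested.

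Other large rises in the Emx1-Cre cKO came from genes of unlike function. Snx32, a sorting nexin, had 0.520 in the cKO and 0.162 in the control. St7, a transmembrane protein gene with an 1832 nt listed intron, had 0.487 in the cKO and 0.134 in the control (authors' FDR 3.73e-15). Eif4a1, a helicase of translation initiation, had 0.604 in the cKO and 0.274 in the control for a 247 nt intron that also holds an annotated small nucleolar RNA. Reads of a small RNA gene inside an intron would count toward retention, and their part in these levels was not tested. Ppox, an enzyme of haem synthesis, had 0.597 in the cKO and 0.290 in the control. Dcaf8, an adaptor of the CUL4 ubiquitin ligase, had 0.876 in the cKO and 0.574 in the control at a coverage of 27.3. Phkg2, a phosphorylase kinase subunit, had 0.524 in the cKO and 0.222 in the control, and Uros, another enzyme of haem synthesis, had 0.429 in the cKO and 0.163 in the control.

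Of the 22 introns with less retention in the Emx1-Cre cKO, Arid1a had the largest fall. Arid1a, a DNA-binding subunit of SWI/SNF complexes, stood at 0.135 in the cKO and 0.522 in the control (254 nt, authors' FDR 4.64e-05, coverage 35). Ptprn, a protein of dense-core vesicles, stood at 0.217 in the cKO and 0.568 in the control (520 nt, coverage 26), and Ctdsp1, a phosphatase that acts with the neuronal gene repressor REST, at 0.234 in the cKO and 0.579 in the control. Retained forms of these 3 genes were the major form only in the control. Celf2, itself a regulator of splicing, stood at 0.372 in the cKO and 0.623 in the control for a 1366 nt intron annotated in its 3' UTR (authors' FDR 6.42e-12, coverage 321). Another listed event, of mutually exclusive exons, lay across the Celf2 intron, and its part in the levels was not tested. Dlx1, a transcription factor of interneuron development, stood at 0.572 in the Emx1-Cre cKO and 0.767 in its control. Eno2, the neuronal enolase, stood at 0.0295 in the cKO and 0.130 in the control for a 285 nt intron.

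**Figure D1:**
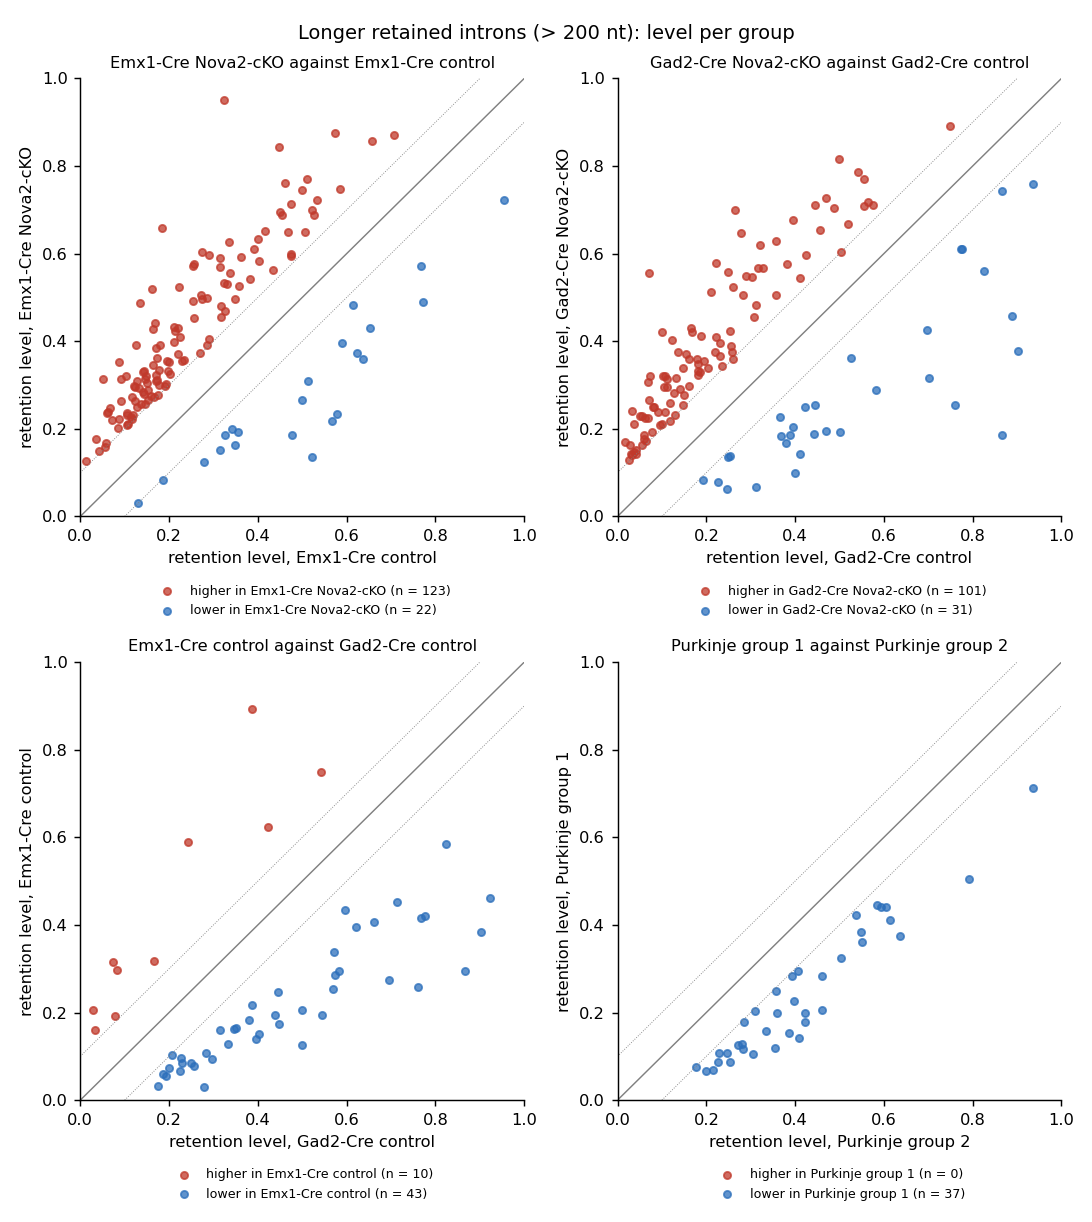
Retention level of each longer intron in the group named on the vertical axis against the group named on the horizontal axis, 1 panel per table and 1 point per intron (fractions, pooled by the authors, no error bars available). The solid line marks equal levels and the dotted lines a difference of 0.1. Most points lie above the line in the cKO panels (123 of 145 for Emx1-Cre, 101 of 132 for Gad2-Cre), and below it in the panels of controls (43 of 53) and of Purkinje tissue (37 of 37).

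In Gad2-Cre cells, 132 longer introns (124 genes) were listed, 101 of them higher in the cKO and 31 lower. The share higher was 76.5% (interval 68.4% to 83.5%), against 72.8% among all retained introns and 36.2% among cassette exons of that table (where 63.8% were lower). Median levels were 0.331 in the cKO and 0.230 in the control. The retained form became the major form in the cKO at 23 introns and ceased to be so at 9. Among all 217 retained introns of that table these counts were 39 and 17, and the shares were not tested against each other. Median coverage was 78.2. Among shorter introns 57 of 85 were higher (67.1%), against 95 of 120 (79.2%) in the Emx1-Cre table, and whether longer and shorter introns differ in this share was not tested.

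Ppox had the largest rise in the Gad2-Cre cKO, at 0.556 in the cKO and 0.0698 in the control, from a coverage of 23 (authors' FDR 6.09e-06). Cpsf4 encodes a subunit of the machinery that cleaves and polyadenylates RNA, and its 1455 nt intron stood at 0.699 in the cKO and 0.266 in the control. Parp2, a DNA repair enzyme, stood at 0.579 in the cKO and 0.222 in the control, and Dpp7, a lysosomal peptidase, at 0.647 in the cKO and 0.278 in the control with a coverage of 20.6. Gnpda2, an enzyme of amino sugar metabolism, had a 2024 nt intron at 0.420 in the cKO and 0.1 in the control. Rabl2, a GTPase of cilia, stood at 0.558 in the cKO and 0.249 in the control. None of these genes was on a gene list used here.

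The 31 falls in the Gad2-Cre cKO were fewer but individually larger at the top of the range. Mroh1 stood at 0.185 in the cKO and 0.867 in the control (524 nt, authors' FDR 2.64e-06, coverage 28). Vars2, the mitochondrial valyl-tRNA synthetase, stood at 0.378 in the cKO and 0.902 in the control, at a coverage of 25. Med25, a Mediator subunit, stood at 0.253 in the cKO and 0.760 in the control, at a coverage of 22. Coverage at these 3 introns was close to the listing minimum of 20, and the counting error of such levels cannot be computed from the files. Hdac7, a class IIa histone deacetylase, stood at 0.458 in the cKO and 0.889 in the control, and Scap, the escort protein of the sterol sensor SREBP, at 0.192 in the cKO and 0.5001 in the control. Top2a, the topoisomerase of dividing cells, stood at 0.316 in the cKO and 0.702 in the control for a 350 nt intron in its 3' UTR.

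Several introns had very small FDR values in both cortical knockouts. Myl6, a myosin light chain of non-muscle cells, stood at 0.352 in the Emx1-Cre cKO and 0.0880 in its control (authors' FDR 4.57e-26), and at 0.308 in the Gad2-Cre cKO and 0.0686 in its control (authors' FDR 4.11e-20). Its 1025 nt intron is the last of the coding transcript, and in both tables another listed event, a cassette exon or tandem cassette, overlaps it. Ssr4, a subunit of the translocon-associated complex, stood at 0.177 in the Emx1-Cre cKO and 0.0348 in its control (authors' FDR 8.27e-23), and at 0.152 in the Gad2-Cre cKO and 0.0416 in its control. Gas5, a non-coding host of small nucleolar RNAs, stood at 0.357 in the Emx1-Cre cKO and 0.233 in its control, and at 0.365 in the Gad2-Cre cKO and 0.230 in its control, with coverage of 1436 and 1445. In all 3 genes the spliced form stayed the major form in each of these groups.

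The cortical knockouts were compared with separate control groups, which lets introns be set side by side between them. Both tables listed 56 longer introns in 54 genes, which is 38.6% of the Emx1-Cre introns and 42.4% of the Gad2-Cre introns. Of these, 49 were higher in both knockouts, 5 were lower in both, and 2 went opposite ways, so 96.4% had the same direction. Among all retained introns, 86 were in both tables (32.5% of those listed for Emx1-Cre, 39.6% of those listed for Gad2-Cre), 96.5% of them with the same direction. Among cassette exons 320 were in both (35.1% and 44.1%), 98.8% of them with the same direction, and these sets were not tested against each other. Among the 49, the median difference was 0.176 in Emx1-Cre and 0.196 in Gad2-Cre cells, with the larger of the pair in Gad2-Cre cells at 30 introns and in Emx1-Cre cells at 19. Of introns listed in 1 cKO table alone, 72 of 89 (80.9%) were higher in the Emx1-Cre cKO and 52 of 76 (68.4%) were higher in the Gad2-Cre cKO. Absence from the other table does not show that an intron was unchanged there.

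Introns higher in both knockouts covered a wide span of levels. Haus6, a subunit of the augmin complex of the mitotic spindle, stood at 0.314 in the Emx1-Cre cKO and 0.0514 in its control, and at 0.240 in the Gad2-Cre cKO and 0.0333 in its control, for a 1454 nt intron. Slc4a3, an anion exchanger, stood at 0.590 in the Emx1-Cre cKO and 0.314 in its control, and at 0.567 in the Gad2-Cre cKO and 0.317 in its control. Fam133b stood at 0.570 in the Emx1-Cre cKO and 0.315 in its control, and at 0.628 in the Gad2-Cre cKO and 0.357 in its control. In these 3 genes the gap between cKO and control was wider in each class than the gap between the knockouts or between the controls. Brd9 remained high in the Gad2-Cre cKO, at 0.711 against 0.446 in its control. St7 stood at 0.403 in the Gad2-Cre cKO and 0.122 in its control, and Eif4a1 at 0.620 in the Gad2-Cre cKO and 0.322 in its control. Ftx, a non-coding RNA gene of the X-inactivation region, stood at 0.694 in the Emx1-Cre cKO and 0.450 in its control, and at 0.728 in the Gad2-Cre cKO and 0.469 in its control.

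Metabolic and housekeeping genes were among the introns higher in both knockouts. Idh2, a mitochondrial isocitrate dehydrogenase, stood at 0.236 in the Emx1-Cre cKO and 0.106 in its control, and at 0.317 in the Gad2-Cre cKO and 0.132 in its control. H2afz, which encodes the histone variant H2A.Z, stood at 0.430 in the Emx1-Cre cKO and 0.221 in its control, and at 0.422 in the Gad2-Cre cKO and 0.169 in its control. Rpl41, a ribosomal protein gene, stood at 0.209 in the Emx1-Cre cKO and 0.106 in its control, and at 0.211 in the Gad2-Cre cKO and 0.101 in its control. Differences in Rpl41 were thus near the listing minimum of 0.1 while those in H2afz were above 0.2.

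The 5 introns lower in both knockouts were in Celf2, Cep250, Smpd4, Sez6 and Cntn2. Cntn2 encodes contactin 2, an adhesion molecule of axons, and its 202 nt intron stood at 0.185 in the Emx1-Cre cKO and 0.325 in its control (authors' FDR 1.08e-10), and at 0.168 in the Gad2-Cre cKO and 0.380 in its control. Sez6, a seizure-related membrane protein of dendrites, stood at 0.2003 in the Emx1-Cre cKO and 0.341 in its control, and at 0.227 in the Gad2-Cre cKO and 0.367 in its control, for a 213 nt intron. In both genes the retained form was a minor form in all 4 groups. Smpd4, a neutral sphingomyelinase, stood at 0.124 in the Emx1-Cre cKO and 0.280 in its control, and at 0.0982 in the Gad2-Cre cKO and 0.400 in its control. Cep250, a protein of the centrosome linker, stood at 0.431 in the Emx1-Cre cKO and 0.653 in its control, and at 0.561 in the Gad2-Cre cKO and 0.825 in its control. Celf2 in the Gad2-Cre cKO stood at 0.250, against 0.423 in its control. In both cKO tables a listed event of mutually exclusive exons lay across the Celf2 intron, and its part in the levels was not tested. The Smpd4 and Cep250 introns each hold an annotated inner exon, whose part in the levels was not tested.

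The 2 introns with opposite directions were in Tmem214, a protein of the endoplasmic reticulum, and at the Rab4b locus, which encodes a GTPase of early endosomes. The 274 nt intron of Tmem214 stood at 0.496 in the Emx1-Cre cKO and 0.274 in its control, and at 0.426 in the Gad2-Cre cKO and 0.696 in its control. It holds an annotated inner exon, and a cassette exon event of the Gad2-Cre table lay across it. Their part in the levels was not tested. The 264 nt intron at Rab4b, which contains an annotated microRNA, stood at 0.285 in the Emx1-Cre cKO and 0.141 in its control, and at 0.205 in the Gad2-Cre cKO and 0.395 in its control. In both genes the knockouts lay closer to each other than the controls did. A test of the difference between the classes was not possible from pooled levels.

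**Figure D2:**
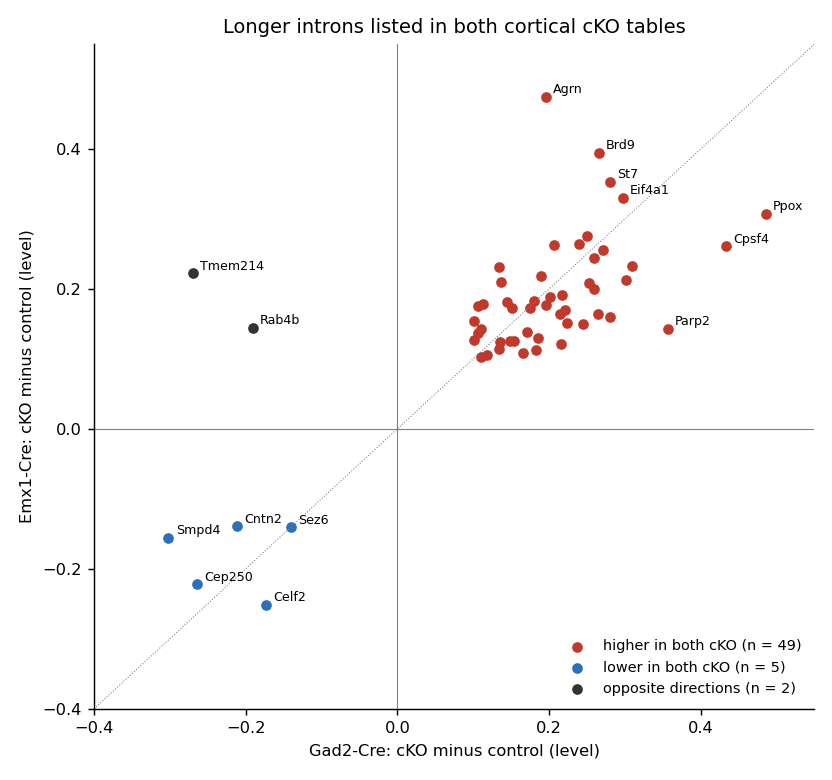
Difference in retention level, cKO minus control, for the 56 longer introns listed in both cortical cKO tables, 1 point per intron, with the Emx1-Cre difference on the vertical and the Gad2-Cre difference on the horizontal axis (fractions, no error bars available). The dotted line marks equal differences. Of the 56 points, 49 lie above 0 on both axes, 5 below 0 on both, and 2 (Tmem214 and Rab4b) above 0 for Emx1-Cre and below 0 for Gad2-Cre.

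The table of controls asks how retention differed between the cell classes with NOVA2 present. It listed 53 longer introns (51 genes), 10 higher in the Emx1-Cre control and 43 lower, so 18.9% were higher, against 15.2% among all retained introns and 39.5% among cassette exons of that table. Those lower were 81.1%, against 84.8% among all retained introns. Median levels were 0.205 in the Emx1-Cre control and 0.387 in the Gad2-Cre control. Median coverage was 51.0.

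Among introns lower in the Emx1-Cre control, the largest gaps were in Mroh1, at 0.296 in the Emx1-Cre control and 0.867 in the Gad2-Cre control, in Vars2, at 0.385 in the Emx1-Cre control and 0.902 in the Gad2-Cre control, and in Med25, at 0.258 in the Emx1-Cre control and 0.760 in the Gad2-Cre control. Coverage at these 3 introns was again low, at most 27. The 412 nt intron of Agrn, number 18 of 37, had a far better covered gap, at 0.420 in the Emx1-Cre control and 0.775 in the Gad2-Cre control (authors' FDR 3.18e-25, coverage 360). Sh3glb2, an endophilin family gene, stood at 0.461 in the Emx1-Cre control and 0.923 in the Gad2-Cre control for its 413 nt intron. Htt, the huntingtin gene, stood at 0.195 in the Emx1-Cre control and 0.545 in the Gad2-Cre control. A cassette exon event of the same table overlapped the Agrn and Sh3glb2 introns.

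Among the 10 in the other direction, Rps24, a ribosomal protein gene, stood at 0.893 in the Emx1-Cre control and 0.387 in the Gad2-Cre control. Its 2281 nt intron holds an annotated inner exon, and reads from that exon could count toward retention, which was not tested. Tcea2, an elongation factor gene, stood at 0.589 in the Emx1-Cre control and 0.243 in the Gad2-Cre control, and Celf2 at 0.623 in the Emx1-Cre control and 0.423 in the Gad2-Cre control. Abca5, a lipid transporter, stood at 0.314 in the Emx1-Cre control and 0.0732 in the Gad2-Cre control.

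The table of controls uses the same control samples as the cKO tables, and the control levels were equal within 1e-06 at all 20 longer introns it shares with the Emx1-Cre cKO table and all 18 it shares with the Gad2-Cre cKO table. A high control level therefore enters both tables, and overlap between them is no independent result. At Vars2 the level was 0.378 in the Gad2-Cre cKO, 0.385 in the Emx1-Cre control and 0.902 in the Gad2-Cre control. At Aatk, a kinase of neurons, it was 0.288 in the Gad2-Cre cKO, 0.295 in the Emx1-Cre control and 0.582 in the Gad2-Cre control. Both have 1 high group of 3, the Gad2-Cre control. All 3 tables listed 5 introns, in Celf2, Rab4b, Rpl7, Tmem214 and Agrn (736 nt). The Agrn intron stood at 0.657 in the Emx1-Cre cKO, 0.577 in the Gad2-Cre cKO, 0.183 in the Emx1-Cre control and 0.381 in the Gad2-Cre control. Rpl7, a ribosomal protein gene, stood at 0.480 in the Emx1-Cre cKO, 0.431 in the Gad2-Cre cKO, 0.317 in the Emx1-Cre control and 0.166 in the Gad2-Cre control.

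Purkinje tissue at postnatal day 28 had 37 longer introns (36 genes), all lower in group 1 of the authors' table than in group 2. This is 100% lower (interval 90.5% to 100%), against 96.9% of all retained introns (3.08% higher) and 70.5% of cassette exons in that table. The sources used here do not say which group is the knockout, so no direction of NOVA2 loss can be read from these values. Median levels were 0.2 in group 1 and 0.393 in group 2, and median coverage was 107. The longest intron of all, 3300 nt in the splicing factor gene Rbm25, had the largest gap, at 0.505 in group 1 and 0.792 in group 2. Srsf6, an SR-protein splicing factor, stood at 0.374 in group 1 and 0.637 in group 2, and Yeats2, a reader of acylated histones, at 0.178 in group 1 and 0.423 in group 2. Ddx5, an RNA helicase, had the deepest coverage at 1666, with 0.250 in group 1 and 0.357 in group 2 (authors' FDR 4.81e-11). Its 1265 nt intron contains an annotated microRNA.

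Of the 37 introns, 19 (51.4%) were also listed in a cortical cKO table, 16 with Emx1-Cre and 13 with Gad2-Cre cells. The matching shares for all retained introns and for cassette exons of the Purkinje table were not computed. Whether this overlap is particular to longer introns is therefore not known. All but 1 of the 16, Tcea2, were higher in the Emx1-Cre cKO, and all but 1 of the 13, Rbm25, were higher in the Gad2-Cre cKO. Over all longer introns, 84.8% of 145 were higher in the Emx1-Cre cKO and 76.5% of 132 in the Gad2-Cre cKO. Whether the shared introns differ from these shares was not tested. The Tcea2 intron stood at 0.397 in the Emx1-Cre cKO and 0.589 in its control, and the Rbm25 intron at 0.610 in the Gad2-Cre cKO and 0.774 in its control. The 10 introns listed in all 3 knockout tables were in Slc4a3, Myl6, Ift20, 1810022K09Rik, Hnrnpdl, Srsf6, Mau2, Mat2a, Hnrnph1 and Ppp1r12a. Those of Myl6, Hnrnpdl, Srsf6 and Mat2a hold an annotated inner exon. Reads from such an exon could count toward retention, which was not tested. Mat2a makes the methyl donor S-adenosylmethionine and is known for a regulated last intron; that 585 nt intron stood at 0.599 in the Emx1-Cre cKO and 0.474 in its control, at 0.667 in the Gad2-Cre cKO and 0.519 in its control, and at 0.446 in Purkinje group 1 and 0.584 in group 2. Ift20, a protein of intraflagellar transport, stood at 0.321 in the Emx1-Cre cKO and 0.103 in its control, at 0.295 in the Gad2-Cre cKO and 0.105 in its control, and at 0.202 in Purkinje group 1 and 0.309 in group 2. At each of the 10 introns, both cortical cKO levels were above their controls and Purkinje group 1 was below group 2. The Purkinje direction was that of all 37 introns, and 49 of the 56 introns in both cortical tables were higher in both. The pattern is therefore not particular to the 10.

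**Figure D3:**
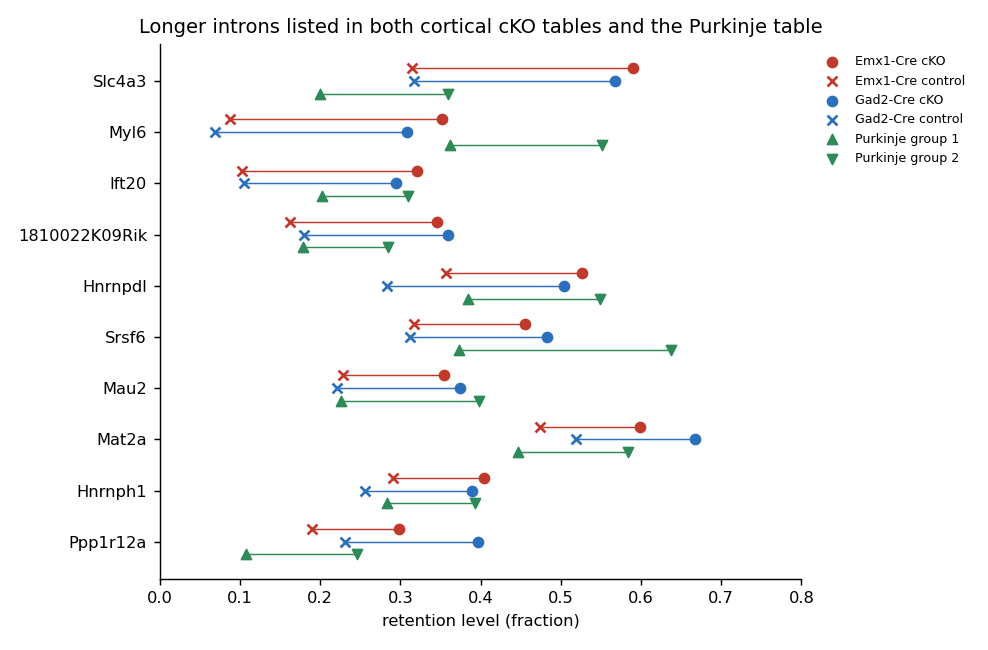
Retention levels of the 10 longer introns listed in the Emx1-Cre, Gad2-Cre and Purkinje tables, 1 row per intron, with a dot for a cKO, a cross for its control, and upward and downward triangles for Purkinje groups 1 and 2 (fractions on the horizontal axis, pooled by the authors, no error bars available). Each intron is higher in both cortical knockouts than in their controls, and lower in Purkinje group 1 than in group 2, as were all 37 longer introns of the Purkinje table.

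Genes for RNA-binding and splicing proteins supplied 15 of the longer introns, in 14 of the 119 genes of that list. In Emx1-Cre cells, 5 of 6 were higher in the cKO, with a median difference of 0.151 against 0.156 over all 145. In Gad2-Cre cells, 8 of 12 were higher, with a median of 0.137 against 0.148 over all 132, and those lower were in Celf2, Celf3, Rbm25 and Srsf2. In the Purkinje table all 8 were lower in group 1, with a median of -0.164 against -0.165 over all 37. The medians of the list were thus close to those of all longer introns in each of these tables. The list made up 4.14% of the longer introns in the Emx1-Cre, 9.09% in the Gad2-Cre, 1.89% in the controls and 21.6% in the Purkinje table. Among all retained introns of these tables it made up 4.15%, 8.76%, 1.90% and 16.9%, and among cassette exons 1.97%, 2.48%, 3.18% and 3.36%, so its share of the longer introns was near that of retained introns in general in the cortical tables, and the gap in the Purkinje table was not tested.

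Hnrnpdl, a heterogeneous nuclear ribonucleoprotein gene, had its 1119 nt intron in the 3' UTR at 0.527 in the Emx1-Cre cKO and 0.357 in its control, at 0.504 in the Gad2-Cre cKO and 0.283 in its control, and at 0.385 in Purkinje group 1 and 0.549 in group 2. Hnrnph1, of the same family, had neighbouring introns of 1494 and 939 nt on either side of 1 exon. The 1494 nt intron stood at 0.454 in the Gad2-Cre cKO and 0.307 in its control (authors' FDR 3.89e-21, coverage 1884). The 939 nt intron stood at 0.389 in the Gad2-Cre cKO and 0.255 in its control. Both neighbours were higher in the Gad2-Cre cKO and both were lower in Purkinje group 1. Srsf2, an SR-protein gene, stood at 0.744 in the Gad2-Cre cKO and 0.867 in its control for a 502 nt intron in its 3' UTR. Luc7l, a component linked to U1 recognition of 5' splice sites, stood at 0.700 in the Emx1-Cre cKO and 0.523 in its control, and at 0.653 in the Gad2-Cre cKO and 0.457 in its control. Pabpn1, the nuclear poly(A)-binding protein, stood at 0.689 in the Emx1-Cre cKO and 0.526 in its control, and at 0.770 in the Gad2-Cre cKO and 0.556 in its control.

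Other lists gave smaller counts, set here beside their shares of longer introns, of all retained introns and of cassette exons, in that order. Shares among all genes were not computed, and no share was tested. Genes of synapses and ion channels (119 listed) gave 3 introns, 2 in Agrn and 1 in Unc13b, a priming factor of synaptic vesicles that stood at 0.264 in the Emx1-Cre cKO and 0.123 in its control. The shares were 1.38%, 1.13% and 7.13% in the Emx1-Cre table, and 1.52%, 0.922% and 6.61% in the Gad2-Cre table. In both, the share of longer introns was nearer to that of all retained introns than to that of cassette exons. Genes of chromatin and transcription (103 listed) gave 7 introns, in Brd9, Arid1a, Hdac10, Med25, Hdac7, Chd8 and Kdm5a. Of the 3 in each cKO table, 2 were higher and 1 lower in the Emx1-Cre cKO, and 1 was higher and 2 lower in the Gad2-Cre cKO. The shares were 2.07%, 1.51% and 3.40% in the Emx1-Cre table, and 2.27%, 1.38% and 3.99% in the Gad2-Cre table. Trafficking and GTPase genes (109 listed) gave 3, in Tbc1d24, Vps16 and Lmtk3, and cytoskeletal genes (96 listed) gave 1, in Camsap3. Trafficking shares were 1.38%, 1.89% and 7.13% in the Emx1-Cre table, and 0.758%, 2.30% and 7.99% in the Gad2-Cre table. Cytoskeletal shares were 1.89%, 1.90% and 7.68% in the table of controls. Of 29 genes known from earlier work as NOVA targets, Agrn alone appeared. The shares were 0.690%, 0.377% and 5.26% in the Emx1-Cre table, and 1.52%, 0.922% and 5.23% in the Gad2-Cre table. Here too the share of longer introns was nearer to that of all retained introns than to that of cassette exons. The 412 nt intron of Agrn went the other way from the 736 nt one in the Gad2-Cre cKO, at 0.610 against 0.775 in its control. The 412 nt intron holds an annotated inner exon, and other listed events of the Gad2-Cre table lay across the 736 nt one. Their part in the levels was not tested. Of 34 genes marking other cell types, Top2a, a gene of dividing cells, alone appeared. The shares of that list were 0.758%, 0.461% and 0% in the Gad2-Cre table. In the cKO tables each of these lists rested on at most 3 longer introns.

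Longer introns were mostly higher in the cKO in each length class. In the Emx1-Cre table, 61 of 73 introns of up to 500 nt (83.6%), 28 of 33 of up to 1000 nt (84.8%) and 34 of 39 longer ones (87.2%) were higher in the cKO. In the Gad2-Cre table the counts were 44 of 58 (75.9%), 25 of 33 (75.8%) and 32 of 41 (78.0%). Spearman's rho of length with the cKO minus control difference was 0.13 over 145 introns in Emx1-Cre and 0.043 over 132 in Gad2-Cre cells. In the table of controls rho was 0.17 over 53 introns and in the Purkinje table -0.24 over 37, all given as descriptions, with introns of a table sharing their libraries. Long introns could be listed with small FDR values: the 3279 nt intron of Eif4h, a cofactor of translation initiation, stood at 0.320 in the Emx1-Cre cKO and 0.148 in its control (authors' FDR 9.45e-11, coverage 358). The Eif4h intron holds an annotated inner exon, and reads from that exon could count toward retention, which was not tested. The 2754 nt intron of Smc6, a genome stability protein, stood at 0.230 in the Gad2-Cre cKO and 0.0513 in its control (authors' FDR 1.17e-07). The limit of 200 nt fell between Gm24299 at 198 nt and Nudt14 at 201 nt. Just outside it, the 197 nt intron of Thoc1 stood at 0.513 in the Emx1-Cre cKO and 0.314 in its control. Just inside it, the 201 nt intron of Nudt14 stood at 0.167 in the Emx1-Cre cKO and 0.0585 in its control.

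**Figure D4:**
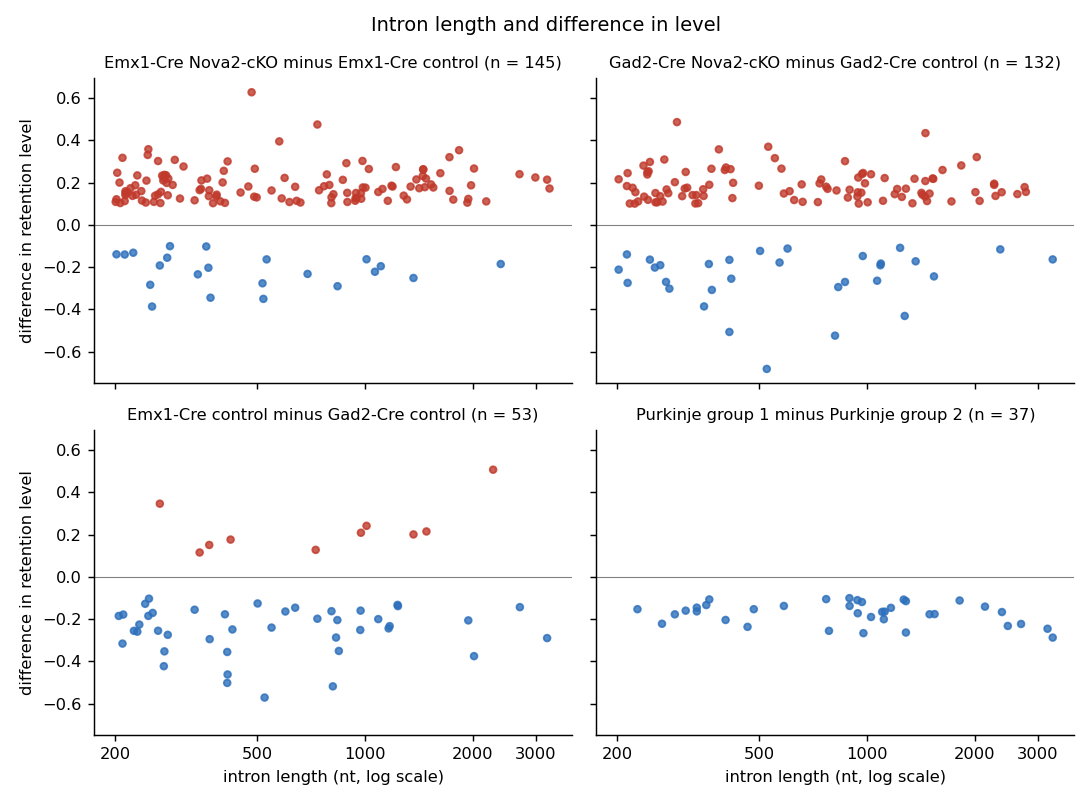
Difference in retention level (fraction) of each longer intron against intron length in nt on a log axis, 1 panel per table, with cKO minus control in the cortical knockout panels, Emx1-Cre minus Gad2-Cre control, and Purkinje group 1 minus group 2. Both directions appear in each length class of the knockout panels, although the introns above 2395 nt in the Emx1-Cre panel are all higher in the cKO, while all 37 Purkinje values lie below 0.

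By the annotation, 244 of the 259 introns (94.2%) lay within coding sequence, 6 in 5' UTRs, 7 in 3' UTRs and 2 in non-coding transcripts. None was the first intron of its transcript, against 10.4% of 125663 annotated introns of the same length range in protein-coding genes, and 0 of the 215 shorter ones was first either. Last introns made up 47 (18.1%), against 12.5% of the annotated introns and 9.30% of the shorter retained ones. The length was a multiple of 3 in 98 (37.8%), against 33.8% of annotated introns. Which introns the authors' catalogue of events can contain was not analysed here, and these shares may be set by it.

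Sequence could be read for 226 of the 259 introns, those lying inside an exon of another annotated transcript, and all 226 began with GT and ended with AG. A reading frame could be followed for 215, and 212 of these (98.6%) met a stop codon in frame inside the intron, at a median of 36.5 nt from its start. The share was 97.0% in annotated introns that could be read the same way and 75.3% in shorter retained introns. Median GC content was 48.8%, against 48.4% in the 6337 annotated introns that could be read and 56.2% in the shorter ones. These 6337 are 5.04% of the annotated introns and also lie inside an exon of another transcript. Median GC content was 48.3% in introns higher in a cortical cKO, 53.1% in those lower in a cortical cKO and 44.0% in those of the Purkinje table. An annotated exon of another transcript lay inside 30 of the longer introns, and an annotated small RNA inside 7. Reads from either could count toward retention at these introns, and their part in the levels was not tested.

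The density of the 4 tetramers was 1.63 per 100 nt at the median, against 1.60 in 6337 annotated introns with readable sequence. Within the first 100 nt, 3 or more tetramers were found in 37 of 152 introns that were higher in a cortical knockout (24.3%, interval 17.8% to 32.0%), in 5 of 37 that were lower in a cortical knockout (13.5%, interval 4.54% to 28.8%), in 22.1% of all longer introns and in 19.96% of the annotated introns. The intervals of the higher and lower introns overlap each other and both include the annotated share. Of the 152, the 46 that were higher in both knockouts held 3 or more in 18 cases (39.1%, interval 25.1% to 54.6%), and of the 5 introns lower in both, 0 did. Within the last 100 nt the counts were 35 of 152 introns higher in a cortical knockout (23.03%), 10 of the 46 higher in both (21.7%) and 9 of 37 lower in a cortical knockout (24.3%), against 24.7% of the annotated introns. These groupings were chosen after the values had been seen, no test was made of the difference, and the intervals treat introns as separate although the 46 include the Cpsf4 pair, which shares its 5' end, and the Mau2 pair, whose 5' ends lie 3 nt apart. Alkbh6, St7, Brd9, Cpsf4 and Agrn, printed above, are among the 18, while Ppox and Eif4a1 are not. Introns with 3 or more are thus more frequent among those printed as higher in both than among the 46.

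**Figure D5:**
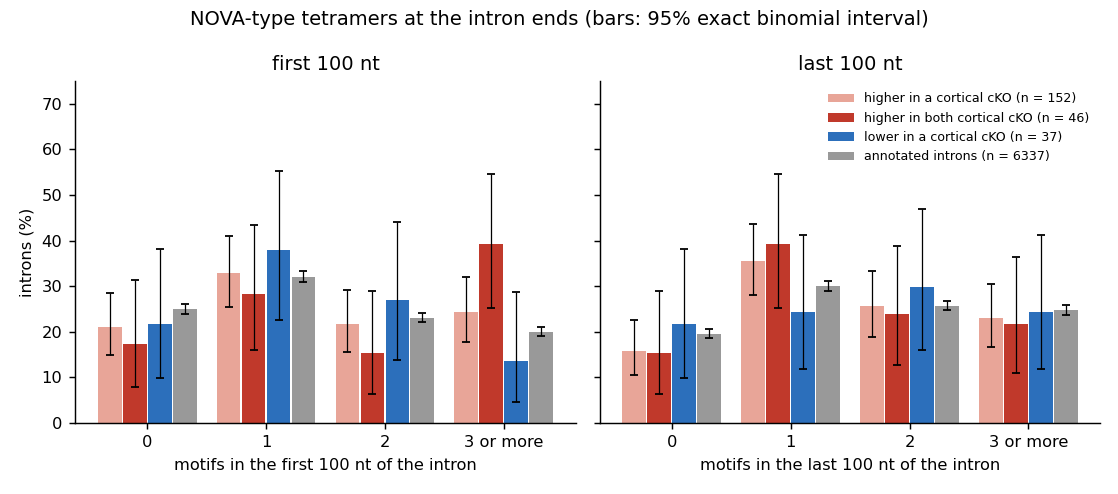
Share of introns (percent) by the number of NOVA-type tetramers in the first and in the last 100 nt of the intron, for longer introns higher in a cortical knockout, the subset higher in both, those lower in a cortical knockout, and annotated introns of the same length range, with 95% Clopper-Pearson intervals as error bars. All sets hold only introns with readable sequence, which lie inside an exon of another annotated transcript. In the first 100 nt, 24.3% of the 152 introns higher in a knockout and 39.1% of the 46 higher in both held 3 or more, against 13.5% of the 37 lower in a knockout and 19.96% of the annotated ones.

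A few longer introns overlapped one another or other listed events. There were 4 overlapping pairs, in Psd, Mrps17, Cpsf4 and Mau2, which are not separate observations. In Mau2, which encodes a loader of cohesin, 5' splice sites 3 nt apart give introns of 941 and 944 nt, shown here with exon bases in capitals and intron bases in lower case.
Mau2, site of the 941 nt intron, chr8:70023591-70023620, minus strand: CCAAGAGGTAgtaggtgacatgcttcatgt
Mau2, site of the 944 nt intron, chr8:70023594-70023623, minus strand: ACACCAAGAGgtagtaggtgacatgcttca
The 944 nt form stood at 0.372 in the Emx1-Cre cKO and 0.221 in its control, and the 941 nt form at 0.354 in the Emx1-Cre cKO and 0.229 in its control. In the Gad2-Cre cKO the 944 nt form stood at 0.411, against 0.188 in its control. An event of another type lay across 15 of the 145 Emx1-Cre introns, 12 of them higher in the cKO and 3 lower, and across 12 of the 132 Gad2-Cre introns, 9 higher and 3 lower. The same held for 6 of 53 in the table of controls (both Agrn introns, Dvl1, Noc2l, Sh3glb2 and Tmem214) and 4 of 37 in the Purkinje table (Rnpc3, Myl6, Rbm25 and Srsf6), all lower in the Emx1-Cre control or in Purkinje group 1. St7, Brd9, Agrn, Myl6 and Celf2 are among these in the Emx1-Cre table, and all but Brd9 also in the Gad2-Cre table. At such introns a change in a neighbouring exon or splice site and a change in retention cannot be told apart from the levels alone.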

How the data were processed

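Splicing levels are the authors' Quantas output on genome build mm10, as named in the labels, and the submitters' processing notes also name kallisto and edgeR. The aligner, versions, event catalogue, strandedness and depth per sample are not given in the sources used here, so depth is unknown. Each deposited table gives, per the file headers, 1 pooled retention level per group as a fraction, the authors' p-value and FDR, and the coverage of the event as a signal whose definition is not stated. The isoform named first is the retained one, so the deposited fraction is the share that keeps the intron. The control is group 1 in the deposited cortical cKO tables, per the labels, and differences were turned to cKO minus control here. The Purkinje groups are called 1 and 2, since no header or label orders them.

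Introns were taken from the spliced isoform in the deposited BED lists, 1 entry per distinct intron, from 733 listed rows of which 387 were of longer introns. Rows of 1 intron in a table had identical levels, and the largest FDR was kept. Annotation and sequence came from GENCODE mouse release M21, and an intron was read where an annotated exon covered it with 10 nt on each side. Background introns were those of protein-coding transcripts, above 200 and up to 3300 nt. The motif and stop-codon counts were tested on simulated sequences. Intervals are Clopper-Pearson at 95% and cover counting error only. Analyses used Python 3.11.15, pandas 2.3.3, numpy 2.4.6, scipy 1.17.1 and matplotlib 3.10.9.

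The members and gene lists were chosen with earlier results of these data known. Named introns were drawn mainly from those in at least 2 tables (the 25 with the largest difference) and the 10 with the largest difference per direction and table. Further sources were those with opposite cortical directions, those next to the length limit, the 3 longest of each table, and members of the gene lists. Not every intron of these groups is named. Others named for their gene's role, their small FDR or their place among introns shared by tables were chosen after their values were seen. No test across samples could be made from pooled levels.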

Additional observations from a re-analysis of the deposited data

Results flagged for a closer look

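The retained introns of Tmem214 and of the Rab4b locus moved in opposite directions in the cortical knockouts. The cKO minus control difference for Tmem214 was 0.223 in Emx1-Cre and -0.270 in Gad2-Cre cells. For the Rab4b locus it was 0.144 in Emx1-Cre and -0.191 in Gad2-Cre cells. The difference between the cell classes was not tested, since each group has 1 pooled level. In the Gad2-Cre table a cassette exon overlapped the Tmem214 intron, which also holds an annotated inner exon. Their part in the values was not tested.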

How the results depend on the processing

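Shares were recomputed under 8 alternatives each: longer than 500 or 1000 nt, coverage of at least 50, a difference of at least 0.2, FDR up to 0.01, 1 intron per gene, without introns overlapped by another event, and, added after the data were seen, without introns that hold an annotated inner exon. No share changed its majority direction, and 35 of 40 values stayed within the interval of the reported share. The share higher in the Gad2-Cre cKO was 83.9% at coverage of at least 50 and 68% at differences of at least 0.2. The share with the same direction in both cortical knockouts was 100% above 500 nt, above 1000 nt and at FDR up to 0.01. The cause was not tested. Ranges were 79.6% to 88.2% for Emx1-Cre, 17.4% to 30.8% higher in the Emx1-Cre control for the table of controls, and 0% higher in Purkinje group 1. Low coverage limits Mroh1, Vars2, Med25, Adam11 and Dpp7 in particular. Introns below the listing thresholds were not analysed here. No paired analysis was possible because the tables hold pooled levels without replicate values, and for the same reason no replicate could be left out.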
